A study of Mus musculus with 10 samples.

Results

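The proteasome genes were taken as the rows of the expression table whose gene symbol begins with Psma, Psmb, Psmc, Psmd, Psme, Psmf or Psmg, which gave 50 of 24839 rows. All 50 are annotated as protein coding, so no pseudogene had to be left out. A mean of at least 1 FPKM was reached by 47 of them, and these were tested together with all other genes that reached it, 10321 in all. The 3 members below that level were Psma8, the alpha subunit of the testis, Psmb11, the beta subunit of the thymus, and Psmc3ip. Psmb11 is listed at 0 in all 10 libraries and Psma8 at 0 in 9 of them. Psmc3ip has a matching symbol but encodes a recombination cofactor and not a proteasome subunit, and it stood at 0.693 FPKM on average in NCD against 1.17 in HCD.

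Messenger RNA had been sequenced from small intestinal epithelial cells of mice, in 5 libraries titled NCD and 5 titled HCD, which stands for high cellulose diet. In the described design both diets were fed for 60 days, and sensitised animals received 2 intraperitoneal injections, on days 0 and 14, of 50 µg of ovalbumin (OVA, a protein of egg white) with 1 mg of an aluminium adjuvant, and later 50 mg of OVA by mouth on 5 occasions, while the other animals got saline. The treatment label is untreated for every NCD library and OVA for every HCD library, so diet and OVA cannot be told apart in any difference given here. Strain, age, sex and genotype are not given in the labels, and nothing says whether each library is a separate animal, so p-values measure the spread between these libraries.

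The proteasome is the main protease of the cytosol and the nucleus. Its 20S core is a barrel of outer rings of alpha subunits, which gate the entry, around inner rings of beta subunits, of which Psmb5, Psmb6 and Psmb7 cut protein. The 19S particle caps the barrel, binds proteins tagged with ubiquitin, removes the tag and unfolds them. Interferon induces Psmb8, Psmb9 and Psmb10, which take the places of Psmb5, Psmb6 and Psmb7 in newly built barrels and so form the immunoproteasome, and it also induces Psme1 and Psme2, an activator ring that can replace the cap. The immunoproteasome favours peptides that fit MHC class I molecules, and leukocytes carry it without induction.

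Promoter sequence from RefSeq on GRCm38.p6 was on hand for 42 of the 50 members and for 27025 genes in all, and 250 bases before each start were searched on both strands for 5 motifs. The 4 stretches below are shown because each holds a searched motif in a member that the results turn on. These are the ETS core (CCGGAAG) in Psmg1, the member that differed most, the antioxidant response element (TGACNNNGC) in Psmb6 and Psmb5, and the GAS element of interferon gamma signalling (TTCNNNGAA) in Psmb8. Capitals mark only the motif named here for each stretch. The Psmg1 stretch also holds GAS letters, left in lower case, at 243 to 235 bases before the start. Psmg1 lies on the minus strand at chr16:95990961-95991210, Psmb6 on the plus strand at chr11:70525107-70525356 and Psmb5 on the minus strand at chr14:54618023-54618245. The Psmb8 site, on the plus strand at chr17:34198088-34198117, precedes the RefSeq start but lies within the span of Psmb8 in GENCODE M21.
Psmg1: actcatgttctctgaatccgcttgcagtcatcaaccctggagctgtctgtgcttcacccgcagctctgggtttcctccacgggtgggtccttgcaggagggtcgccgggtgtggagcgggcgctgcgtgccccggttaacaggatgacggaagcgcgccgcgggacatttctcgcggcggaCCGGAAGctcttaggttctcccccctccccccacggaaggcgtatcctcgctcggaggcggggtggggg
Psmb6: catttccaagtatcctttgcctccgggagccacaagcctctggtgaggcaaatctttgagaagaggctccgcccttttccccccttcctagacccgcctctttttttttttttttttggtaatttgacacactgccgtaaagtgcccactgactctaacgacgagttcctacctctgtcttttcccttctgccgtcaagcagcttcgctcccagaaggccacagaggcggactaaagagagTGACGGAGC
Psmb5: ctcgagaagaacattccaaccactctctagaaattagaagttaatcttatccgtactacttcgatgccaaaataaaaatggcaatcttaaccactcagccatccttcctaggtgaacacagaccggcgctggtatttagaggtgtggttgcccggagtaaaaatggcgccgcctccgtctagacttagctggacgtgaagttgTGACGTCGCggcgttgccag
Psmb8: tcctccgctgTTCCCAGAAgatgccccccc
The GAS letters were found in 1 of the 5 inducible members (Psmb8), in 1 of the 34 other tested members with a promoter (Psmg1) and in 8.13% of all promoters. The interferon-stimulated response element core was in 0 of 5 inducible members, 3 of 34 others and 3.46% of all. The antioxidant response element was in 0 of 5, in 5 of 34 (Psmb5, Psmb6, Psmc6, Psmd9 and Psmd12) and in 11.5% of all. The ETS core was in 0 of 5, in 12 of 34 and in 7.83% of all, and the CCAAT box in 1 of 5, in 12 of 34 and in 37.5% of all. A match describes letters in this window and no binding was measured.

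As deposited, every constitutive subunit of the 20S core was lower in HCD, while the 3 immunoproteasome subunits did not pass. In limma's fit across all genes, 26 of 47 tested members fell at an adjusted p under 0.05, while 0 rose, also at an unadjusted p under 0.05. Over all tested genes 19.2% were lower and 7.13% higher by the same rule. All 14 constitutive core subunits fell, against 1 of the 5 inducible members (Psme2), and whether these 2 sets moved apart was tested separately, with ratios. The median difference on the log2(FPKM + 1) scale, HCD minus NCD, was -0.47 over the tested members, -0.61 over the constitutive core and -0.19 over both the inducible members and all tested genes. No HCD library reached any NCD library in 19 of the 47 members, where 12.9% of all tested genes were lower without overlap.

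Part of this depends on the scale. FPKM is a share of the library, and the 13 genes of the mitochondrial genome took 3.23% to 5.76% of summed FPKM in NCD and 14.8% to 29.5% in HCD. When each library was scaled by its other genes alone, called the nuclear scale below, the median of all tested genes moved from -0.19 to -0.05, and of the genes that passed 52.1% were higher, against 27.1% as deposited. On that scale 10 members passed as lower, all among the 26, where 8.34% of all tested genes did, and 0 as higher. After quantile normalization 7 passed as lower, all among the 26, against 8.56% of all genes. The median of the tested members minus that of all genes was -0.28 as deposited, -0.25 on the nuclear scale and -0.16 after quantile normalization. For the constitutive core the gap was -0.42, -0.40 and -0.31, and for the 5 inducible members 0.00, 0.03 and 0.15. All 14 core subunits had a negative difference on each of these scales. The share of all tested genes with a negative difference is not given here, but their median was below 0 on each scale (-0.19, -0.05 and -0.06). In 7 members the groups did not overlap on the nuclear scale and HCD was lower, against 5.99% of all tested genes.

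**Figure D1:**
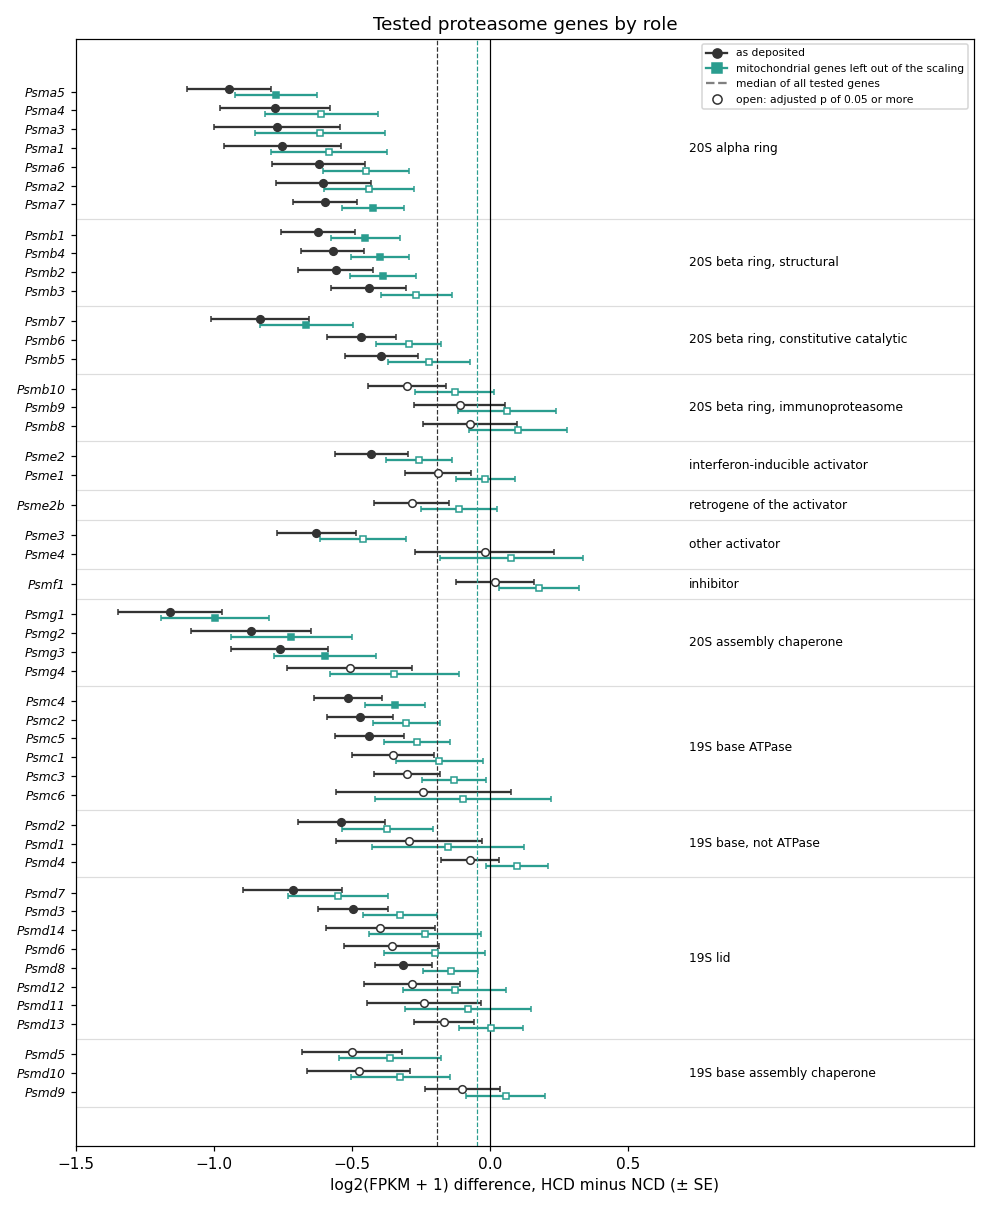
Difference between HCD and NCD for the 47 tested proteasome genes, grouped by role, on the log2(FPKM + 1) scale with its SE (5 libraries per group). Black circles are values as deposited and green squares are values on the nuclear scale, with the mitochondrial genes left out. Filled symbols passed at an adjusted p under 0.05 and dashed lines mark the median of all tested genes on each scale. All 7 alpha subunits are filled in black and 2 are filled in green, while the 3 immunoproteasome subunits are open on both scales, and Psmb8 and Psmb9 are among those that change sign between them.

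The alpha ring fell as a whole on the deposited scale, 7 of 7, by 0.60 to 0.95 on the log2 scale (median -0.75). Psma5 (chromosome 3, 108256926 to 108279974) had the largest difference of the ring. Its libraries, replicates 1 to 5 in order here and below, read 98.3, 63.6, 95.5, 69.4 and 65.4 FPKM in NCD and 37.7, 35.1, 46.1, 36.6 and 43.1 in HCD. The groups did not overlap, and the means were 78.5 ± 17.01 FPKM against 39.7 ± 4.67 (SD, n = 5), 1.97-fold lower (-0.95 ± 0.15 SE in log2, adjusted p = 0.000985). Psma7 read 217, 197, 222, 198 and 211 FPKM in NCD and 131, 119, 143, 166 and 133 in HCD, again without overlap (-0.60 ± 0.12 SE in log2, adjusted p = 0.00292). Psma5 and Psma7 passed on the nuclear scale too (-0.78, adjusted p = 0.00298, and -0.43, adjusted p = 0.0188), and Psma3 joined them after quantile normalization.

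The other alpha subunits overlapped between the groups. Psma4 read 72.7, 32.4, 65.5, 50.5 and 57.04 FPKM in NCD and 29.6, 36.7, 29.4, 36.9 and 23.5 in HCD (-0.78 ± 0.20 SE in log2, adjusted p = 0.0122), where NCD 2 lay below 2 HCD libraries. Psma6 read 128, 89.6, 109, 82.7 and 78.8 FPKM in NCD and 60.4, 55.1, 88.02, 55.6 and 56.2 in HCD (-0.62 ± 0.17 SE in log2, adjusted p = 0.0153), and HCD 3 was the highest of its group and above 2 NCD libraries. Psma1 (-0.75, adjusted p = 0.0192), Psma2 (-0.60, adjusted p = 0.0195) and Psma3 (-0.77, adjusted p = 0.0236) passed as well. These 3 calls depended on single libraries: Psma1 no longer passed without NCD 3 (adjusted p = 0.0543), Psma2 without NCD 1 or NCD 3 (up to 0.0554) and Psma3 without NCD 1, NCD 3, NCD 5 or HCD 5 (up to 0.0667). Subunits of this ring are built in equal number, yet mean NCD levels per length ran from 209 FPKM (Psma7) to 13.02 FPKM (Psma3), 16.0-fold apart. Psma3 has near copies without a row of their own, such as Gm13835 (100% identity over 665 bases), that can share its reads. So do Psma5 (Gm8394, 98.6% over 952 bases) and Psmb5 (Gm3375, 98.9% over 796 bases), among other members. The part of shared reads in these levels was not tested.

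All 4 structural beta subunits, which hold the ring together and do not cut, fell as deposited. Psmb4 read 243, 226, 211, 226 and 208 FPKM in NCD and 158, 134, 165, 161 and 132 in HCD. Every HCD library lay below every NCD library, and the means were 223 ± 14.2 FPKM against 150.0 ± 15.8, 1.49-fold lower (-0.57 ± 0.11 SE in log2, adjusted p = 0.00326). Psmb1 read 128, 108, 109, 122 and 96.3 FPKM in NCD and 83.3, 58.5, 83.3, 75.7 and 64.5 in HCD (-0.62 ± 0.13 SE in log2, adjusted p = 0.00483), without overlap. Psmb2 read 172, 134, 132, 133 and 117 FPKM in NCD and 94.2, 74.9, 109, 89.05 and 97.02 in HCD (-0.56 ± 0.13 SE in log2, adjusted p = 0.00888), also without overlap. These 3 passed on the nuclear scale, at -0.40, -0.45 and -0.39, and 0 of the 4 passed after quantile normalization, where 3 had an unadjusted p under 0.05. The share of all tested genes under that unadjusted p is not given here, so whether the count exceeds it cannot be said. Psmb3 read 241, 219, 192, 235 and 220.2 FPKM in NCD and 175, 124, 152, 199 and 170.5 in HCD (-0.44 ± 0.14 SE in log2, adjusted p = 0.0289). HCD 4 was above NCD 3 there, and the call was lost when any 1 of NCD 1, NCD 4, NCD 5, HCD 2 or HCD 3 was left out (adjusted p up to 0.0707). Psmb3 also shares sequence with a processed pseudogene that has a row of its own (Gm4950, mean 4.92 FPKM).

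The 3 constitutive catalytic subunits fell too. Psmb7, of the trypsin-like site, read 77.3, 65.4, 86.1, 53.3 and 51.97 FPKM in NCD and 34.7, 28.8, 51.6, 36.8 and 33.03 in HCD. The groups did not overlap, though HCD 3 came within 1 FPKM of NCD 5, and the means were 66.8 ± 14.9 FPKM against 36.99 ± 8.66, 1.81-fold lower (-0.84 ± 0.18 SE in log2, adjusted p = 0.00472). Psmb7 was the only one of the 3 to pass on the nuclear scale (-0.67, adjusted p = 0.0156). Psmb6, of the caspase-like site, read 187, 187, 145, 188 and 154 FPKM in NCD and 141, 105, 129, 118 and 127 in HCD (-0.47 ± 0.12 SE in log2, adjusted p = 0.0148), all HCD libraries below all NCD libraries. Psmb5, of the chymotrypsin-like site, read 66.4, 75.9, 64.99, 76.01 and 71.9 FPKM in NCD and 66.9, 54.8, 41.3, 54.4 and 54.02 in HCD (-0.39 ± 0.13 SE in log2, adjusted p = 0.0401). HCD 1 was above both NCD 1 and NCD 3 in Psmb5, and the call was lost in 9 of the 10 fits that left out a library, all but that without HCD 1 (adjusted p up to 0.0936).

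The immunoproteasome subunits did not pass. Psmb8 (chromosome 17, 34197721 to 34201454) read 114, 161, 141, 117 and 163 FPKM in NCD and 146, 135, 128, 169.5 and 89.1 in HCD, with the highest of all 10 libraries in HCD 4 and the lowest in HCD 5 (-0.07 ± 0.17 SE in log2, adjusted p = 0.788). Psmb9 (chromosome 17, 34181987 to 34187764), its neighbour in the MHC region, read 57.9, 69.00, 59.6, 58.2 and 77.1 FPKM in NCD and 74.5, 59.4, 49.8, 75.7 and 43.2 in HCD. Its groups overlapped too, with HCD 5 lowest (-0.11 ± 0.16 SE in log2, adjusted p = 0.653). Psmb10 read 218, 254, 217, 220.2 and 268 FPKM in NCD and 194, 183, 178, 256 and 153 in HCD (-0.30 ± 0.14 SE in log2, adjusted p = 0.128), and HCD 4 was the only HCD library above 200 FPKM. The 3 subunits had 0 members under an unadjusted p of 0.05 on any of the 3 scales. On the nuclear scale, Psmb8 stood at 0.10, Psmb9 at 0.06 and Psmb10 at -0.13, so the sign for Psmb8 and Psmb9 depends on the scale. Psmb10 passed when HCD 4 was left out (-0.41, adjusted p = 0.0370). Exons of Psmb9 overlap those of Tap1 on the other strand, as do those of Psmb7 and Nek6, Psme1 and Emc9, Psmc3 and Slc39a13, and Psmd13 and Sirt3, and whether fragments were counted by strand is not known here.

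**Figure D2:**
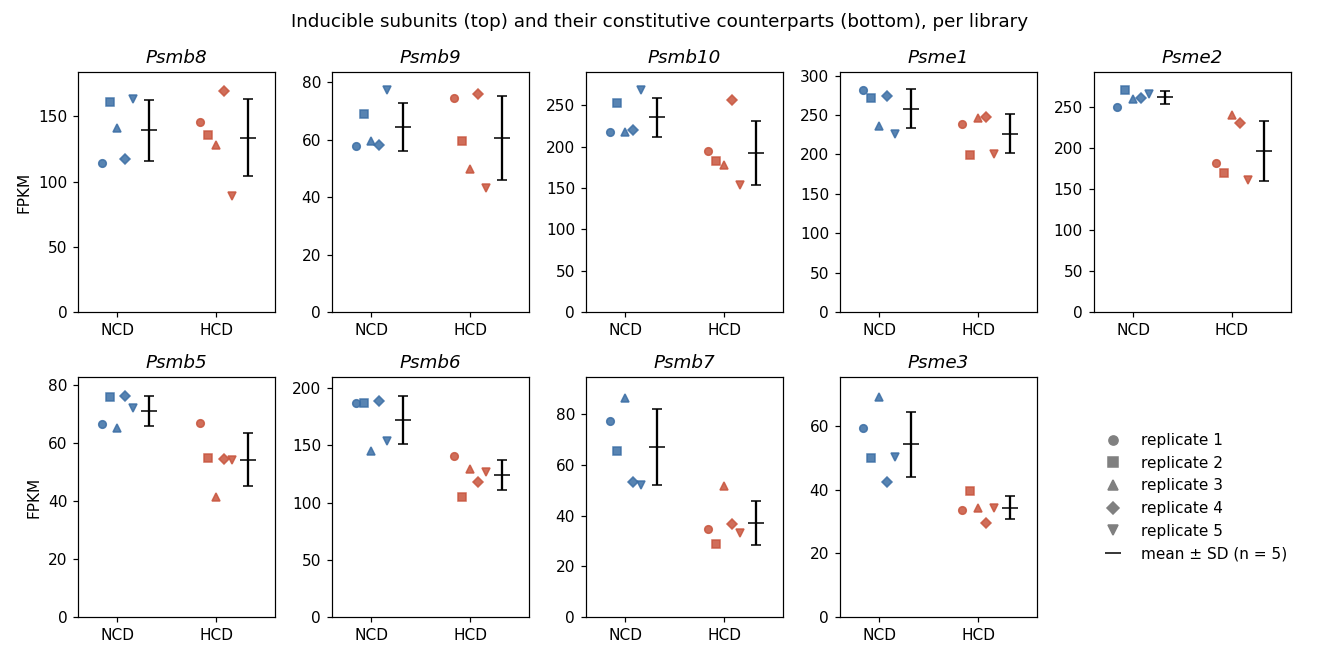
FPKM in each library of the 5 interferon-inducible subunits (top) and of the genes set against them (bottom), with the mean and SD of 5 libraries per group. Psmb5, Psmb6 and Psmb7 are the constitutive counterparts of Psmb8, Psmb9 and Psmb10, while Psme3 is a separate activator set against Psme1 and Psme2. All HCD points lie below all NCD points in Psmb6, Psmb7, Psme3 and Psme2, while the groups overlap in Psmb8, Psmb9, Psmb10, Psme1 and Psmb5.

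Among activators, Psme2 and Psme3 fell, while Psme1 did not pass. Psme1 read 282, 272, 237, 274 and 226 FPKM in NCD and 238, 199.7, 247, 247 and 199.9 in HCD (-0.19 ± 0.12 SE in log2, adjusted p = 0.262). Psme2, its partner in the ring, read 249.9, 270.1, 259.7, 261 and 266 FPKM in NCD and 181, 169, 240.2, 229.6 and 160.2 in HCD. No HCD library reached the lowest NCD library, and the means were 261 ± 7.59 FPKM against 196 ± 36.4 (-0.43 ± 0.13 SE in log2, adjusted p = 0.0277), although HCD 3 and HCD 4 stood well above the other 3. The Psme2 call was lost when any 1 of NCD 2, NCD 3, NCD 5, HCD 1, HCD 2 or HCD 5 was left out (adjusted p up to 0.0628), and Psme2 did not pass on the nuclear scale (-0.26, adjusted p = 0.154). The single-exon copy Psme2b is 99.4% identical to Psme2 over 794 bases, so that reads of the 2 genes cannot be told apart with certainty. It read 101, 102, 93.9, 104 and 86.5 FPKM in NCD and 106, 67.2, 82.8, 80.3 and 67.99 in HCD (-0.28 ± 0.14 SE in log2, adjusted p = 0.134), and passed without HCD 1 (adjusted p = 0.0339).

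Psme3, the nuclear activator that interferon does not induce, read 59.2, 49.8, 68.97, 42.4 and 50.3 FPKM in NCD and 33.8, 39.7, 34.2, 29.6 and 34.3 in HCD. The groups did not overlap, and the means were 54.1 ± 10.2 FPKM against 34.3 ± 3.57, 1.58-fold lower (-0.63 ± 0.14 SE in log2, adjusted p = 0.00635; on the nuclear scale -0.46, adjusted p = 0.0533). Psme4, a further activator of the nucleus, was low, and read 1.74, 0.817, 2.10, 0.994 and 1.76 FPKM in NCD and 0.613, 2.37, 0.772, 2.30 and 1.497 in HCD. Its difference was -0.02 (adjusted p = 0.965) and it ranged from -0.14 to 0.12 when a library was left out. Psmf1, which inhibits the core in purified form, read 12.6, 9.81, 12.2, 9.78 and 9.14 FPKM in NCD and 10.8, 10.8, 11.4, 10.1 and 10.8 in HCD (0.02 ± 0.14 SE in log2, adjusted p = 0.947), the only tested member with a positive difference as deposited.

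Whether inducible and constitutive subunits moved apart was asked with a ratio of the FPKM of each inducible gene to its counterpart within a library, which no scaling of the library can change. For Psme1 and Psme2 the gene compared was Psme3, a separate activator and not a subunit whose place they take. Of the 5 ratios, all had a higher mean in HCD and none passed after adjustment. Psmb8 over Psmb5 was 1.72, 2.12, 2.17, 1.54 and 2.27 in NCD and 2.18, 2.47, 3.11, 3.12 and 1.65 in HCD. The groups overlapped, with HCD 5 as low as NCD, and the mean went from 1.96 ± 0.316 to 2.50 ± 0.628 (SD, n = 5). The difference in log2 ratio was 0.33, with an interval of -0.17 to 0.78 (exact permutation test, two-sided, p = 0.127, adjusted p = 0.169 over 5 ratios). Psmb9 over Psmb6 was 0.310, 0.370, 0.412, 0.309 and 0.501 in NCD and 0.530, 0.566, 0.386, 0.640 and 0.341 in HCD. Here HCD 1, HCD 2 and HCD 4 lay above all NCD libraries and the other two did not (0.36, interval -0.12 to 0.86, exact p = 0.135, adjusted p = 0.169). Psmb10 over Psmb7 was 2.82, 3.88, 2.52, 4.13 and 5.16 in NCD and 5.61, 6.34, 3.44, 6.96 and 4.64 in HCD. The mean went from 3.70 to 5.40, the largest of these differences in log2 ratio (0.55, interval -0.15 to 1.16, exact p = 0.0794, adjusted p = 0.169).

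The activator ratios gave a similar picture. Psme1 over Psme3 was 4.76, 5.47, 3.43, 6.46 and 4.49 in NCD and 7.06, 5.04, 7.21, 8.35 and 5.84 in HCD. Of the HCD libraries 3 exceeded every NCD library, and the difference in log2 ratio was 0.45 with an interval of 0.01 to 0.94 (exact permutation p = 0.0476, adjusted p = 0.169). Psme2 over Psme3 was 4.22, 5.43, 3.76, 6.14 and 5.28 in NCD and 5.37, 4.26, 7.03, 7.76 and 4.68 in HCD. The HCD libraries spread on both sides of the NCD libraries (0.21, interval -0.31 to 0.72, exact permutation p = 0.333, adjusted p = 0.333). With Psme2b added to Psme2, a choice made after the data had been seen, the difference was 0.26 (exact permutation p = 0.246). The intervals of the ratios other than Psme1 to Psme3 include 0. A difference between the inducible and the constitutive members was thus not shown by these tests. Equal ratios were not shown either.

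**Figure D3:**
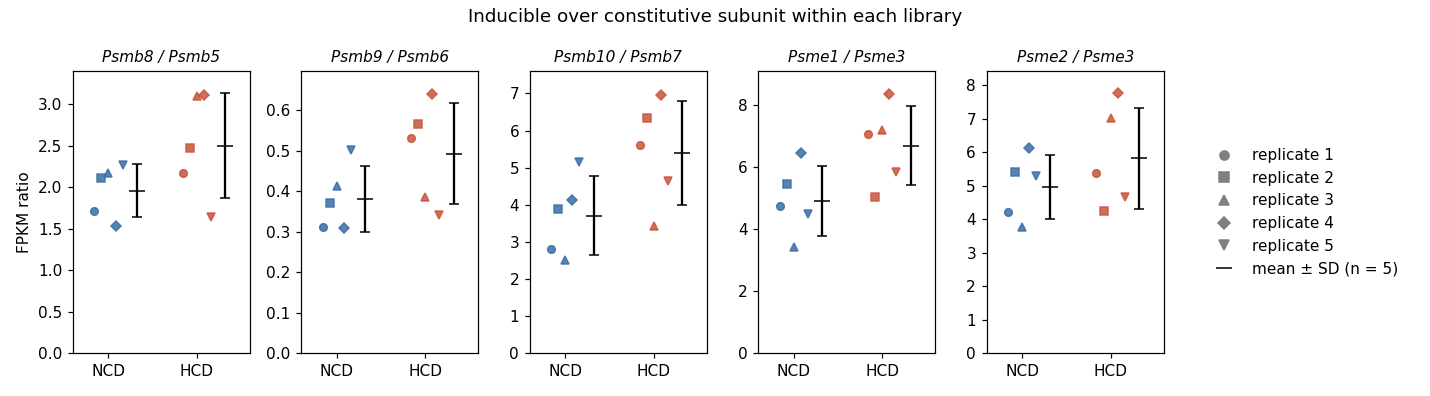
Ratio of the FPKM of each inducible subunit to its constitutive counterpart, or to Psme3 for Psme1 and Psme2, within each library. The mean and SD are of 5 libraries per group. In each panel the HCD mean is above the NCD mean and the groups overlap. In Psmb8 to Psmb5, Psmb9 to Psmb6, Psmb10 to Psmb7 and Psme1 to Psme3, 3 of 5 HCD libraries lie above the highest NCD library, and 2 of 5 in Psme2 to Psme3.

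The chaperones that build the 20S core had the lowest median of all roles, -0.82, and 3 of 4 fell on all 3 scales. Psmg1 (chromosome 16, 95979933 to 95990960), which pairs with Psmg2 to seat alpha subunits, had the largest difference of any member. It read 32.8, 21.7, 28.9, 16.2 and 21.01 FPKM in NCD and 12.6, 8.17, 9.94, 8.83 and 10.6 in HCD. Every HCD library lay below every NCD library, and the means were 24.1 ± 6.64 FPKM against 10.03 ± 1.73 (SD, n = 5), 2.40-fold lower (-1.16 ± 0.19 SE in log2, adjusted p = 0.00105; on the nuclear scale -0.998, adjusted p = 0.00379). Psmg2 read 11.9, 6.25, 9.90, 6.52 and 5.24 FPKM in NCD and 4.20, 4.43, 4.19, 3.26 and 2.81 in HCD, without overlap and 2.11-fold lower (-0.87 ± 0.22 SE in log2, adjusted p = 0.0106). Psmg3, of the second chaperone pair, read 34.1, 18.5, 23.9, 19.8 and 26.2 FPKM in NCD and 16.9, 12.2, 11.7, 16.02 and 12.4 in HCD (-0.76 ± 0.18 SE in log2, adjusted p = 0.00737), and here too the groups did not overlap. Its partner Psmg4 read 19.3, 10.7, 14.7, 19.1 and 9.81 FPKM in NCD and 14.7, 9.92, 7.00, 10.2 and 8.03 in HCD (-0.51 ± 0.23 SE in log2, adjusted p = 0.110), with HCD 1 level with NCD 3, and it passed without HCD 1 (adjusted p = 0.0486). Psmg3 shares exon sequence with Gm26938 on the same strand (mean 1.21 FPKM).

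In the 19S particle 7 of 17 subunits fell as deposited, with a median of -0.35, against 19.2% and -0.19 over all tested genes. On the nuclear scale 1 of 17 passed as lower (Psmc4), against 8.34% of all tested genes. After quantile normalization 0 passed, against 8.56% of all tested genes, and 4 had an unadjusted p under 0.05. That last count has no share of all genes to be set against. On those scales the calls in the 19S particle did not exceed the share of all genes. Among the ATPases, which unfold the substrate and thread it into the core, Psmc4 read 103, 91.1, 90.7, 90.1 and 85.05 FPKM in NCD and 56.99, 54.2, 73.8, 74.4 and 63.2 in HCD. The groups did not overlap (-0.52 ± 0.12 SE in log2, adjusted p = 0.00888; on the nuclear scale -0.34, adjusted p = 0.0423). Psmc2 read 34.3, 28.9, 35.1, 34.4 and 33.2 FPKM in NCD and 20.2, 25.1, 24.98, 25.7 and 22.4 in HCD (-0.47 ± 0.12 SE in log2, adjusted p = 0.0120), and Psmc5 read 92.9, 69.4, 82.01, 72.4 and 67.2 FPKM in NCD and 50.8, 50.7, 56.5, 63.9 and 59.3 in HCD (-0.44 ± 0.13 SE in log2, adjusted p = 0.0210), both without overlap. The Psmc5 call was lost without NCD 1 or NCD 3 (adjusted p up to 0.0587). Psmc3 read 82.8, 69.8, 85.1, 67.95 and 74.2 FPKM in NCD and 62.2, 52.5, 68.9, 64.00 and 59.5 in HCD and did not pass (-0.30 ± 0.12 SE in log2, adjusted p = 0.0730). Psmc1 (-0.35) and Psmc6 (-0.24) did not pass either, although Psmc1 did without NCD 2 (adjusted p = 0.0229).

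The rest of the base holds the large scaffold subunits and a ubiquitin receptor. Psmd2, a scaffold on which ubiquitin-bearing proteins dock, read 40.1, 28.9, 49.9, 29.4 and 37.04 FPKM in NCD and 20.8, 25.8, 24.4, 27.1 and 25.6 in HCD, with all HCD libraries below all NCD libraries (-0.54 ± 0.16 SE in log2, adjusted p = 0.0222). It no longer passed without NCD 1 or NCD 3 (adjusted p up to 0.0588). Psmd1, the other scaffold, read 7.24, 3.33, 8.67, 3.38 and 6.69 FPKM in NCD and 3.38, 7.43, 3.68, 4.08 and 3.77 in HCD (-0.29 ± 0.26 SE in log2, adjusted p = 0.436), and 2 NCD and 4 HCD libraries lay below 5 FPKM while the others lay above 6. Psmd4, which binds ubiquitin chains, read 77.4, 73.96, 77.8, 78.9 and 75.1 FPKM in NCD and 81.8, 63.3, 72.02, 74.95 and 72.7 in HCD (-0.07 ± 0.11 SE in log2, adjusted p = 0.645). Psmd4 had the smallest spread of the 3 in NCD, and its sign changed to 0.10 on the nuclear scale.

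Of 8 lid subunits 3 fell, against 19.2% of all tested genes. On the nuclear scale 0 passed, against 8.34% of all tested genes lower, and 2 had an unadjusted p under 0.05. For that unadjusted count the share of all genes is not given here. Psmd7, which pairs with the deubiquitinase Psmd14, read 34.8, 21.8, 36.5, 23.7 and 24.7 FPKM in NCD and 17.1, 16.1, 17.8, 20.7 and 11.9 in HCD. The groups did not overlap, and the mean was 1.69-fold lower (-0.72 ± 0.18 SE in log2, adjusted p = 0.0111; on the nuclear scale -0.55, adjusted p = 0.0511). Psmd3 read 83.4, 74.8, 81.1, 62.8 and 72.7 FPKM in NCD and 49.9, 51.04, 44.7, 62.9 and 55.8 in HCD (-0.50 ± 0.13 SE in log2, adjusted p = 0.0117), with HCD 4 just above NCD 4. Psmd8 read 158, 154, 144, 148 and 138 FPKM in NCD and 119, 122, 131, 118 and 107 in HCD (-0.31 ± 0.10 SE in log2, adjusted p = 0.0394). Its groups did not overlap, yet the call was lost in 9 of 10 fits that left out a library, all but that without HCD 3 (adjusted p up to 0.0909). Psmd6 read 12.1, 9.85, 13.6, 8.00 and 10.8 FPKM in NCD and 7.51, 8.83, 6.85, 10.5 and 7.42 in HCD and did not pass (-0.36 ± 0.17 SE in log2, adjusted p = 0.138). Psmd14, which removes the ubiquitin chain, differed by -0.40 (adjusted p = 0.150) and passed without NCD 2 (0.0333). Psmd11, Psmd12 and Psmd13 lay between -0.28 and -0.17 and did not pass.

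The 3 chaperones of the 19S base did not pass, and 2 of them had an unadjusted p under 0.05. How many of all tested genes had such an unadjusted p as deposited is not given here. Psmd5 read 5.34, 4.28, 7.05, 4.15 and 4.37 FPKM in NCD and 3.19, 2.91, 4.07, 3.27 and 2.71 in HCD (-0.50 ± 0.18 SE in log2, adjusted p = 0.0537), without overlap, and passed when NCD 4 was left out (adjusted p = 0.0461). Psmd10 read 11.1, 8.45, 11.05, 7.79 and 7.84 FPKM in NCD and 4.56, 5.50, 9.15, 6.28 and 6.69 in HCD (-0.48 ± 0.19 SE in log2, adjusted p = 0.0743) and passed without HCD 3 (adjusted p = 0.0340). Psmd9 read 10.6, 9.99, 10.4, 9.44 and 8.18 FPKM in NCD and 9.16, 9.47, 9.06, 8.16 and 9.03 in HCD (-0.10 ± 0.14 SE in log2, adjusted p = 0.621), nearly level in all libraries.

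Summed over members, the 14 core genes ran from 1400.1 to 1747 FPKM in NCD and from 872 to 1095 in HCD. The 17 subunits of the 19S particle gave 739 to 864 FPKM in NCD and 594 to 654 in HCD, and the 4 chaperones of the core 57.1 to 98.1 and 32.8 to 48.5. In each of these sums the groups did not overlap. The sum of Psmb8, Psmb9 and Psmb10 was 389.9 to 508 FPKM in NCD and 286 to 502 in HCD, and these ranges overlapped. At the level of single libraries, NCD 1 was the highest of its group in 23 of 47 members and NCD 3 in 14, while NCD 2 was the lowest in 16 and NCD 5 in 15. In HCD, HCD 4 was highest in 15, HCD 2 lowest in 17, and HCD 5 highest in 0. Precision followed level. Members with an NCD mean of at least 50 FPKM (25 genes) had a median coefficient of variation of 10.1% in NCD and 13.5% in HCD, and the 22 below it 24.2% and 17.7%.

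Replicates 1 to 3 carry neighbouring library numbers in each group, as do replicates 4 and 5, and NCD numbers (1 to 10) all precede HCD numbers (11 to 20), so handling that goes with them cannot be told apart from the groups. The core median was -0.69 in replicates 1 to 3, where 3 of 14 passed, and -0.54 in replicates 4 and 5, where 0 passed and 11 had an unadjusted p under 0.05, with a negative difference in 14 of 14 in both sets. The median of all tested genes was -0.25 and -0.11, and 7297 and 6159 of the 10321 had a negative difference in the 2 sets. Over the tested members 10 of 47 passed as lower in replicates 1 to 3 and 0 in replicates 4 and 5, where 15 had an unadjusted p under 0.05. Of all 10321 tested genes, 9.75% passed as lower in replicates 1 to 3 and 0.107% in replicates 4 and 5, where 10.1% were lower at an unadjusted p under 0.05. The inducible members had medians of -0.21 and -0.22.

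Markers of the labelled cells were abundant, and other cells differed between the groups. The 9 epithelial markers (Epcam, Vil1, keratins and others) summed to 9795 to 10971 FPKM in NCD and 7261 to 10740.1 in HCD, and 6 of 9 fell while 2 rose. On the nuclear scale 4 of the 9 fell and 2 rose. Over all tested genes 19.2% fell and 7.13% rose as deposited, and 8.34% fell and 9.07% rose on the nuclear scale. Epcam, an adhesion protein of epithelia, read 565, 461, 674, 457 and 621 FPKM in NCD and 238, 336, 338, 392 and 413 in HCD (-0.70 ± 0.17 SE in log2, adjusted p = 0.00888). The markers that rose were Krt20 (0.60, adjusted p = 0.0405) and Fabp2 (0.68, adjusted p = 0.0456), and Vil1 did not pass (0.14, adjusted p = 0.494). The 12 T cell markers all rose, and their sum went from a range of 298 to 957 FPKM in NCD to 2019.9 to 3951 in HCD, with Cd3g at 16.04, 19.9, 11.04, 23.5 and 16.5 FPKM in NCD and 136, 66.1, 127, 79.3 and 63.1 in HCD. The 4 haemoglobin genes, which include near copies that can share reads, rose as well, from sums of 15.1 to 41.8 FPKM to sums of 96.6 to 391. Of the B cell markers 1 of 5 tested rose (Jchain), of the myeloid markers 1 of 6 (Itgax) and of the stromal and endothelial ones 1 of 2 (Pecam1), and sums stood at 23.6 to 141 and 72.7 to 105, at 19.5 to 51.9 and 37.6 to 68.0, and at 3.45 to 4.19 and 4.23 to 7.57 FPKM in NCD and HCD. No marker of any list was at 0 in all libraries. In bulk samples fewer cells of a type and less RNA per cell cannot be told apart. The part of T cells, of epithelial content and of the mitochondrial share in the proteasome values was not tested, beyond the rescaled values given above.

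**Figure D4:**
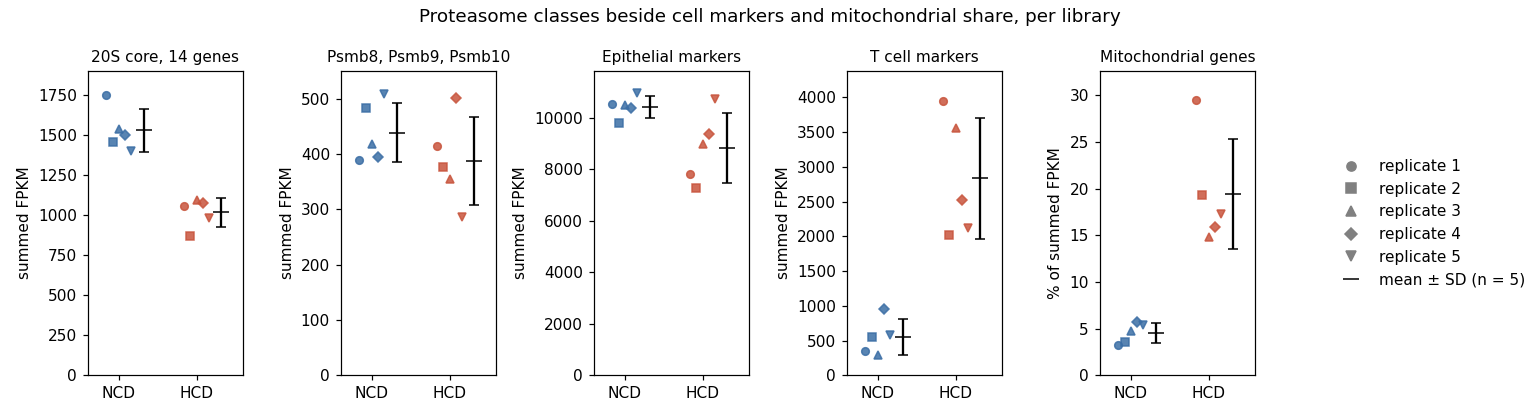
Summed FPKM of the 14 constitutive core genes, of the 3 immunoproteasome subunits, of 9 epithelial markers and of 12 T cell markers, and the mitochondrial share of summed FPKM, in each library with the mean and SD of 5 libraries per group. The core sum is lower and the T cell sum and the mitochondrial share are higher in every HCD library than in every NCD library on the deposited scale, and the immunoproteasome and epithelial sums overlap.

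Several genes that work with the proteasome but carry other symbols fell too. Of 14 tested assembly factors, ubiquitin receptors and deubiquitinases 6 fell and 0 rose, with a median of -0.37. Over all tested genes 19.2% fell as deposited, with a median of -0.19. On the nuclear scale only Zfand5 of the 14 passed, where 8.34% of all tested genes passed as lower. Zfand5, which binds ubiquitin and the proteasome, read 35.7, 23.7, 39.3, 31.3 and 34.6 FPKM in NCD and 11.3, 22.8, 11.9, 26.99 and 16.4 in HCD (-0.90 ± 0.23 SE in log2, adjusted p = 0.0109), with HCD 4 above NCD 2. Adrm1, a ubiquitin receptor of the base, differed by -0.39 (adjusted p = 0.0188) and Txnl1, a thioredoxin bound to the proteasome, by -0.64 (adjusted p = 0.0208). Ubqln4, a shuttle for tagged proteins, differed by -0.44 (adjusted p = 0.0334), and Ubqln1 (-0.53) and the core assembly factor Pomp (-0.36) passed too. Of 5 genes of the response that raises proteasome transcription when degradation falls behind, 2 fell and 0 rose. Nfe2l1, its transcription factor, read 24.1, 23.4, 33.3, 17.05 and 25.1 FPKM in NCD and 12.7, 18.9, 12.6, 16.7 and 15.4 in HCD (-0.64 ± 0.18 SE in log2, adjusted p = 0.0169), and Vcp, which extracts that factor from the endoplasmic reticulum, differed by -0.60 (adjusted p = 0.0251). Neither passed on the nuclear scale. Ddi2, the protease that cuts the factor, did not pass (-0.76, adjusted p = 0.0904), nor did Nfe2l2 (-0.45).

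Genes downstream of the immunoproteasome and its inducers were mixed. Of 11 genes of MHC class I and peptide loading 2 rose and 1 fell, with a median of 0.09. Over all tested genes 7.13% rose and 19.2% fell as deposited, with a median of -0.19. H2-K1, a class I heavy chain of a family whose members can share reads, read 100.3, 152, 98.00, 141 and 161 FPKM in NCD and 195, 176, 233, 227 and 189 in HCD (0.66 ± 0.16 SE in log2, adjusted p = 0.00896), every HCD library above every NCD library. Tapbp, which holds class I molecules at the peptide pump, read 62.1, 101, 80.4, 77.4 and 103 FPKM in NCD and 104, 126.3, 100.4, 116 and 123 in HCD (0.44 ± 0.15 SE in log2, adjusted p = 0.0406), with HCD 3 below NCD 2 and NCD 5. Calr, a chaperone of folding glycoproteins, fell, with 463, 484, 573, 422 and 515 FPKM in NCD and 292, 285, 312, 319.7 and 342 in HCD (-0.66 ± 0.12 SE in log2, adjusted p = 0.00199). Pdia3 did not pass (-0.55, adjusted p = 0.0595). When scaled by nuclear genes, H2-D1 and B2m passed as higher too, which made 4 of 11, where 9.07% of all tested genes passed as higher. Among regulators of interferon-inducible genes, Ifngr1, a chain of the interferon gamma receptor, fell and read 89.2, 87.3, 135, 92.00 and 111 FPKM in NCD and 36.6, 62.3, 54.6, 72.2 and 53.9 in HCD (-0.88 ± 0.18 SE in log2, adjusted p = 0.00359). Every HCD library lay below every NCD library there. Nlrc5, an activator of class I genes, differed by 0.69 (adjusted p = 0.0694), and Socs1, a brake on interferon signals, by 0.56 (adjusted p = 0.0699). Scaled by nuclear genes, Socs1 passed as higher (0.70, adjusted p = 0.0411), and under quantile normalization it did not (0.63, adjusted p = 0.0666).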

How the data were processed

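FPKM (fragments scaled to transcript length and library total) were computed by the authors and deposited as a single table with a column per library, and the labels give TRIzol extraction and poly-T selection. The submitters' processing notes name HISAT2, StringTie, DESeq2, edgeR and GRCm38, without versions or roles. The sources used here give no strand setting, annotation or read totals, so depth is unknown and no counting interval is given.

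Rows with a mean of at least 1 FPKM were taken as log2(FPKM + 1), which understates the change of low genes, and fitted with limma 3.58.1 (R 4.3.3, trend), two-sided, p-values being adjusted by Benjamini-Hochberg over every tested row, at a threshold of 0.05. Fold differences are ratios of mean FPKM. Ratios within a library were compared by exact permutation (scipy 1.17.1 and numpy 2.4.6 in Python 3.11.15), and an interval holds the shifts that the test did not reject at 0.05. Both procedures were tested on simulated data. Coordinates are GENCODE M21 on GRCm38, found for all 50 members, and promoters are RefSeq's. Near copies had at least 95% identity over 200 bases.

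The members and lists were chosen with earlier results of these data known. Values per library are given for the inducible genes, their counterparts, Psme3 and up to 4 members per role with the smallest p. Other lists are counted, with up to 4 members each, and some of their genes and counts are not reported here. Alternatives changed the pseudocount, filter, scaling, trend and libraries.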

Additional observations from a re-analysis of the deposited data

Results flagged for a closer look

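The libraries of each tested member were searched, in each group of 5, for a library that stood apart from the others, by Dixon's criterion. Of 104 groups examined, which include the 5 ratios, 3 met it, where chance alone would give about 5.2 (1 in 20). Psmd1 stood at 7.43 FPKM in HCD 2, against 3.38 to 4.08 in the other HCD libraries. Psma2 stood at 23.3 FPKM in HCD 3, against 15.8 to 17.4. Psma6 stood at 88.0 FPKM in HCD 3, against 55.1 to 60.4. Neither Psma2 nor Psma6 changed direction without HCD 3, and both passed there. The cause was not tested.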

How the results depend on the processing

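Of all tested genes 2718 passed, 736 higher and 1982 lower. On the nuclear scale (without mitochondrial genes) 1797 passed (861 lower), after quantile normalization 1811 (883 lower), in replicates 1 to 3 alone 1420 (414 higher, 1006 lower) and in replicates 4 and 5 alone 56 (45 higher, 11 lower). With a minimum of 5 FPKM 433 were higher. Leaving out a library gave 1319 to 2036 lower genes, the fewest without NCD 1. The 26 lower proteasome genes became 10, 7, 10 and 0 under the first 4 of these settings. Leaving out 1 library gave 18 to 26. Of the 26, 17 passed in all 10 of these fits and 9 were lost at least once. Fewer libraries in the runs and the smaller mitochondrial part of the scale are built into these alternatives, and beyond that the cause was not tested.

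Differences near 0 changed sign. On the nuclear scale and after quantile normalization, Psmb8 was at 0.10 and 0.18, Psmb9 at 0.059 and 0.15, Psmd13 at 0.0030 and 0.10, Psmd4 at 0.10 and 0.17, and Psmd9 at 0.056 and 0.054. Psme1 was at 0.091 after quantile normalization and Psmc6 at 0.060 in replicates 1 to 3. Psme4 was at 0.076 on the nuclear scale and at 0.29 in replicates 4 and 5. Psmf1 was at -0.052 as TPM and at -0.058 in replicates 1 to 3. Without 1 library Psmb8 ranged from -0.17 to 0.065, Psme4 from -0.14 to 0.12 and Psmf1 from -0.033 to 0.073. None of these passed in any of these settings.

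The labels do not say whether the numbers in the titles pair the libraries. Same-numbered libraries correlated between -0.24 and 0.22 in their deviations from the group means, and 1 of 5 was most like its own number. With 5 such values a pairing can be neither shown nor excluded. With the replicate block 24 members were lower, all among the 26, and 2293 genes passed, 673 higher and 1620 lower. For the ratios the block allows 32 sign patterns and no p below 0.0625. Replicates 1 to 3 alone allow 20 splits and replicates 4 and 5 alone allow 6, too few for an exact two-sided p under 0.05. The 5 ratios kept their direction and missed the adjusted threshold in all alternatives run. In the block and in these runs of replicates the miss was fixed in advance and says nothing about the ratios. Unknown depth limits what can be said of members below 10 FPKM.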
